A study of Mus musculus with 42 samples.

Results

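Transcript levels of 9 genes of the PARP family (Parp1, Parp2, Parp3, Parp8, Parp9, Parp10, Parp11, Parp12 and Parp14) were followed in bone-marrow-derived macrophages (BMDM), which are obtained by culturing mouse marrow cells in medium conditioned by L929 cells until they become macrophages. The genes were taken by symbol from a table of RNA-seq read counts, in which all 9 of 9 were found among 37310 genes. All 9 were among the 11624 genes with enough counts to be tested. The mice were male and carried a floxed Irf5 gene with LysM-Cre, which removes Irf5 (interferon regulatory factor 5, a transcription factor) in myeloid cells (labelled KO), or were wild-type littermates (labelled WT). LysM-Cre sits in the Lyz2 gene, so the deletion depends on Lyz2 being active in the cells. BMDM of each genotype were left as Control for 0, 2 or 24 h, or were exposed for 2 or 24 h to palmitate (a saturated fatty acid) or to LPS (bacterial lipopolysaccharide, a ligand of Toll-like receptor 4). Each of the 14 groups held 3 libraries, with no statement that they came from separate animals, so p-values measure the spread between these libraries.

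PARP enzymes use NAD to attach ADP-ribose to proteins. PARP1, PARP2 and PARP3 are nuclear enzymes that are activated by DNA breaks, and PARP1 and PARP2 build long chains of ADP-ribose that gather repair proteins. PARP8, PARP10, PARP11, PARP12 and PARP14 attach single ADP-ribose units. PARP9 works bound to the ubiquitin ligase DTX3L. Parp9, Parp10, Parp11, Parp12 and Parp14 are known as genes that interferon induces, and macrophages given LPS make type I interferon.

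In these libraries, 7 of the 9 genes rose in BMDM given LPS for 24 h, in both genotypes, by 2.04-fold (Parp8, WT) to 7.11-fold (Parp14, KO). Parp14 had already risen by 4.05-fold (WT) and 4.58-fold (KO) at 2 h, while Parp11 and Parp12 were called only at 24 h. Parp1 was slightly lower at 24 h of LPS and Parp2 was not called. Palmitate gave no call for any of the 9 genes, and a difference between the genotypes was called at Control 0 h only. Among all genes tested, the share called higher was 14% (WT) and 14.7% (KO) at LPS 2 h, and 19.6% (WT) and 19.9% (KO) at LPS 24 h. Called in either direction were 23.1%, 23.9%, 39.5% and 40.9%. Of the 9 PARP genes, 4 were called higher at 2 h and 7 at 24 h in each genotype. The median log2 fold change of the 9 genes was 0.30 (WT) and 0.26 (KO) at 2 h and 1.79 (WT) and 2.18 (KO) at 24 h, beside medians over all tested genes of -0.0094, -0.011, -0.011 and -0.0095.

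The total count per library was 2848793 to 7743442, with a median of 5625399. The labels were checked on Irf5 and Lyz2. Irf5 was not lower in the libraries labelled KO: its fold change (KO over WT) was 1.03 to 1.39 in the 7 conditions, on counts over the whole gene, which do not show the deleted exons apart. Irf5 was called higher in KO at Control 0 h, Control 2 h, palmitate 24 h and LPS 24 h. Lyz2 was lower in the libraries labelled KO in 7 of 7 conditions, at 0.462 to 0.704 of the level in WT. The groups are named by their labels, and KO stands for the libraries labelled KO. The 6 macrophage markers summed to 4710 to 8750 CPM (counts scaled to library size by TMM). The 5 fibroblast markers summed to 0 to 306 CPM, the 8 granulocyte precursor markers to 19.3 to 204 CPM, and the 5 B cell markers to 3.6 to 13.4 CPM. Dendritic cell markers reached 12.2 CPM, T or NK cell markers 3.22 CPM and erythroid markers 0.519 CPM, with Hbb-bs at 0 in every library.

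At rest, Parp1, Parp14 and Parp12 had the highest levels among the PARP genes followed here. Other ADP-ribosyltransferase genes were not placed in this order or in the sums and shares below. To set genes side by side, levels were divided by the length of their exons (CPM per kb). In WT Control 24 h, Parp1 stood highest at 29.5 ± 1.19 CPM per kb (SD, n = 3), followed by Parp14 at 19.5 ± 1.88 and Parp12 at 12.2 ± 1.94, and the libraries of these 3 genes did not overlap. Parp2 at 5.92 ± 0.407, Parp9 at 5.82 ± 0.147 and Parp10 at 5.43 ± 0.692 CPM per kb followed, and neighbours among these 3 overlapped. Parp3 (3.67 ± 0.766), Parp11 (1.96 ± 0.100) and Parp8 (1.74 ± 0.137 CPM per kb) were lowest, without overlap between neighbours. Parp1 did not lead clearly in every Control group. In KO Control 0 h, Parp14 (26.2 ± 3.33 CPM per kb) stood above Parp1 (24.0 ± 1.45), with overlap. Parp1 (25.4 ± 1.41) and Parp14 (21.8 ± 3.02 CPM per kb) also overlapped in KO Control 2 h. In the other Control groups Parp1 led without overlap.

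After 24 h of LPS the order changed. In WT LPS 24 h, Parp14 led at 132 ± 7.77 CPM per kb, then Parp12 at 60.2 ± 1.82 and Parp9 at 31.8 ± 1.90, and then Parp1 at 25.9 ± 1.31. Parp10 stood at 18.7 ± 3.11, Parp3 at 9.71 ± 1.36, Parp11 at 9.27 ± 0.422, Parp2 at 5.93 ± 1.11 and Parp8 at 3.59 ± 0.269 CPM per kb. Of these neighbours, only Parp3 and Parp11 overlapped. The summed level of the 9 genes was 85.7 ± 3.42 CPM per kb in WT Control 24 h and 297 ± 17.4 in WT LPS 24 h (SD, n = 3). In the libraries labelled KO it was 85.4 ± 5.58 and 314 ± 1.10 CPM per kb.

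With LPS the share of Parp1 in that sum was smaller and that of Parp14 larger than in Control. At 2 h, Parp1 took 28.3% ± 0.411 (SD, n = 3) of the summed level per length in WT Control and 13.7% ± 1.01 in WT LPS, and at 24 h 34.4% ± 2.76 in WT Control and 8.71% ± 0.217 in WT LPS. The share of Parp14 was 25.6% ± 0.832 in WT Control 2 h and 55.7% ± 1.24 in WT LPS 2 h, and 22.8% ± 1.58 and 44.5% ± 1.23 at 24 h, so its share under LPS was larger at 2 h. Parp12 took 18.3% ± 0.857 in WT Control 2 h and 10.5% ± 0.820 in WT LPS 2 h, and 14.2% ± 1.76 and 20.3% ± 0.715 at 24 h. In the libraries labelled KO the share of Parp14 was 25.3% ± 1.65 and 57.1% ± 1.01 at 2 h and 23.02% ± 1.42 and 44.5% ± 0.816 at 24 h, in Control and LPS. The share of Parp1 in KO was 29.7% ± 2.90 in Control 2 h and 12.9% ± 1.12 in LPS 2 h. At 24 h it was 33.6% ± 1.46 in KO Control and 7.76% ± 0.198 in KO LPS. These shares describe transcripts, not protein or enzyme activity.

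**Figure D1:**
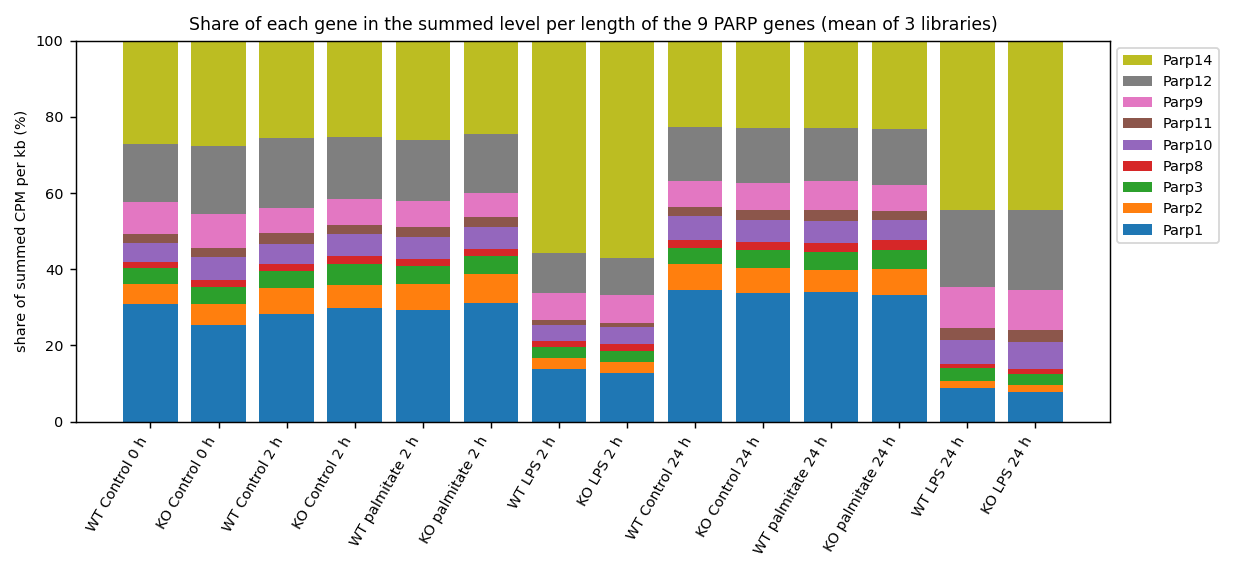
Stacked bars show, for each of the 14 groups, the mean share (%) of each gene in the summed CPM per kb of the 9 PARP genes over 3 libraries. The Parp14 segment is 55.7% ± 1.24 in WT LPS 2 h and 44.5% ± 1.23 in WT LPS 24 h, and the Parp1 segment is smaller in the LPS groups than in the Control and palmitate groups.

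Parp14, Dtx3l and Parp9 are neighbours on chromosome 16. In the GENCODE annotation of GRCm38 (mm10), Parp14 lies at chr16:35832874-35871544 on the minus strand, Dtx3l at chr16:35926511-35939151 on the minus strand and Parp9 at chr16:35938470-35972605 on the plus strand. Parp9 and Dtx3l overlap head to head and share 458 exonic bases. The sources do not say if strand was used in counting, so reads in that stretch could have been given to either gene. Parp14 shares no exonic base with another counted gene.

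Parp14, an enzyme with macrodomains that bind ADP-ribose, had the highest fold change of the 9 genes in each of the 4 LPS comparisons. In WT Control 2 h the 3 libraries read 196, 209.9 and 212 CPM, and in WT LPS 2 h 882, 805 and 822 CPM. At 24 h they read 165, 181 and 199 CPM in WT Control and 1308, 1164 and 1219.9 CPM in WT LPS. All LPS libraries lay above all Control libraries at both times. The log2 fold change was 2.02 ± 0.081 (SE) at 2 h (adjusted p = 9.89e-27) and 2.75 ± 0.083 at 24 h (adjusted p = 1.07e-31). Libraries labelled KO gave 234, 192 and 181 CPM in Control 2 h and 904, 965 and 907 CPM in LPS 2 h, then 176, 177 and 195 CPM in Control 24 h and 1324, 1273 and 1305 CPM in LPS 24 h. There too the groups stood apart, with log2 fold changes of 2.19 ± 0.081 at 2 h and 2.83 ± 0.083 at 24 h (adjusted p = 3.31e-28 and 3.34e-32).

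Parp9, whose protein lacks detectable catalytic activity by itself, rose in steps. It read 25.6, 30.4 and 28.3 CPM in WT Control 2 h and 60.1, 53.2 and 56.1 CPM in WT LPS 2 h, a log2 fold change of 0.99 ± 0.12 (adjusted p = 1.27e-09). At 24 h it read 27.5, 28.8 and 28.7 CPM in WT Control and 157, 145 and 163 CPM in WT LPS, a log2 fold change of 2.44 ± 0.11 (adjusted p = 7.66e-25). Control and LPS libraries did not overlap at either time. In the libraries labelled KO, Parp9 went from 34.7, 26.1 and 25.3 to 65.3, 66.9 and 60.8 CPM at 2 h and from 31.04, 28.6 and 28.2 to 164, 159 and 162 CPM at 24 h. These differences were 1.16 ± 0.12 and 2.47 ± 0.11 on the log2 scale (adjusted p = 1.07e-11 and 2.89e-25).

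Dtx3l, the partner of Parp9, had log2 fold changes of similar size. Its mean was 91.6 ± 2.73 CPM in WT Control 2 h, 184 ± 13.6 in WT LPS 2 h, 98.4 ± 4.94 in WT Control 24 h and 447 ± 4.56 in WT LPS 24 h (SD, n = 3). The log2 fold change was 1.01 ± 0.077 at 2 h and 2.18 ± 0.075 at 24 h in WT, and 1.19 ± 0.077 and 2.39 ± 0.075 in KO, all called. Of the genes on either side of this group, Hspbap1, beside Parp14, had log2 fold changes between -0.12 and 0.014 in the 4 LPS comparisons and was not called. Kpna1, beside Parp9, was called lower at LPS 24 h (-0.28 ± 0.074 in WT and -0.40 ± 0.074 in KO) and was not called at 2 h. Dirc2, the next gene beyond Hspbap1, was called higher at LPS 2 h (0.49 ± 0.14 in WT and 0.51 ± 0.14 in KO) and lower at LPS 24 h (-0.58 ± 0.15 and -0.76 ± 0.15).

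Parp12 and Parp11, both on chromosome 6 but far apart, were called at 24 h and not at 2 h. Parp12 (chr6:39086410-39118349, minus strand) codes for an enzyme with zinc fingers and read 65.2, 63.5 and 60.3 CPM in WT Control 2 h against 63.7, 67.2 and 72.2 CPM in WT LPS 2 h. These groups overlapped, and the log2 fold change of 0.11 ± 0.10 was not called (adjusted p = 0.483). At 24 h the WT libraries read 40.7, 56.2 and 48.95 CPM in Control and 242, 233 and 247 CPM in LPS, with a log2 fold change of 2.29 ± 0.095 (adjusted p = 3.86e-26). Every LPS library was far above every Control library. In KO, the change was 0.26 ± 0.10 at 2 h (adjusted p = 0.0611), with all LPS libraries above all Control libraries, and 2.40 ± 0.095 at 24 h (adjusted p = 4.13e-27). Without KO Control 2 h library 1, the 2 h change in KO was called (adjusted p = 0.0226). The KO libraries read 42.2, 55.04 and 50.7 CPM in Control 24 h and 254, 269 and 264 CPM in LPS 24 h.

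Parp11 (chr6:127446840-127494261, plus strand), an enzyme found at the nuclear envelope, stayed low until 24 h of LPS. In WT it read 14.3, 19.9 and 14.5 CPM in Control 2 h and 17.2, 12.1 and 11.1 CPM in LPS 2 h, with overlap and a log2 fold change of -0.32 ± 0.18 (adjusted p = 0.211). At 24 h it read 13.5, 14.6 and 13.3 CPM in Control and 67.1, 61.7 and 66.6 CPM in LPS. The 24 h groups stood apart, by 2.24 ± 0.15 on the log2 scale (adjusted p = 8.4e-18). In KO the 24 h libraries read 15.9, 14.9 and 15.01 CPM in Control and 71.9, 71.3 and 65.3 CPM in LPS, and the log2 fold change was -0.19 ± 0.18 at 2 h (adjusted p = 0.519) and 2.19 ± 0.15 at 24 h (adjusted p = 8.75e-18). The lowest Parp11 value of all, in KO LPS 2 h, rested on 22, 72 and 64 reads in the 3 libraries.

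Promoter windows from RefSeq (GRCm38.p6, from 250 bases before to 50 bases after each annotated start) were at hand for 6 of the 9 genes: Parp1, Parp2, Parp3, Parp8, Parp11 and Parp12, with 2 starts for Parp11. They were searched on both strands for the letters of the interferon-stimulated response element (ISRE, GAAANNGAAA), of the gamma-activated site (GAS, TTCNNNGAA) and of an NF-kB site (GGGNNNNTCC). The upstream parts of the Parp11 windows are shown because the first is the only member window with the ISRE letters, and the Parp12 sequence because that gene rose as late without them. Only bases before the start and outside annotated exons are printed, 5′ to 3′ on the strand of the gene, and capitals mark motif letters.
Parp11, first start, chr6:127446590-127446839, plus strand: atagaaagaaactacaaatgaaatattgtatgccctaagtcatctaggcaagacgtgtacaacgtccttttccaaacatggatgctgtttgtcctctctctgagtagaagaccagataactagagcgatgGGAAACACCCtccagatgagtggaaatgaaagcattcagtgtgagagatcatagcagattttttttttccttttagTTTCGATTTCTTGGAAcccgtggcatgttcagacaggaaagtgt
Parp11, second start, chr6:127453377-127453619, plus strand: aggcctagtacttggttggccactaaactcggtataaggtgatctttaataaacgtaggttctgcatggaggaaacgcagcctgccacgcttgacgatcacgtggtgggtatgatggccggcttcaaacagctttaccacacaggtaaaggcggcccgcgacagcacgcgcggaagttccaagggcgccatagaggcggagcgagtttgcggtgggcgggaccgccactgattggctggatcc
Parp12, chr6:39118350-39118472, minus strand: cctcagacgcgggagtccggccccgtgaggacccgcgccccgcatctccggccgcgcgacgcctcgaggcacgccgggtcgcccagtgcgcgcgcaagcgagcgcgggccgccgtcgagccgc

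In the first Parp11 window the ISRE letters lie on the opposite strand and begin 44 bases before the start. A GAS match begins 37 bases before the start and shares 3 bases with the ISRE letters, so the pair forms 1 capital run. The pattern TTCNNNGAA is met there on both strands, though the 3 free bases differ between them. The NF-kB letters begin 120 bases before the start. The second Parp11 window and the Parp12 window held none of the 3 motifs in the whole 300 bases searched. Of 32851 promoter windows of this length, 3.44% held the ISRE letters, 8.3% the GAS letters and 19.2% the NF-kB letters. Among the other members, Parp1 held the NF-kB letters, which begin after its start, and Parp2, Parp3 and Parp8 held none of the 3. Parp4, a member of the wider family that did not rise with LPS, also held the ISRE letters. A match of letters is a description and not a site shown to be bound, and a window without a match says only that these letters are not in it.

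Parp10, an enzyme that attaches single ADP-ribose units, rose at both times. In WT it read 22.5, 17.04 and 19.4 CPM in Control 2 h and 32.9, 31.03 and 23.96 CPM in LPS 2 h, then 22.7, 26.4 and 20.5 CPM in Control 24 h and 85.4, 64.9 and 89.7 CPM in LPS 24 h. The groups did not overlap at either time, and WT LPS 24 h spread more than the other groups of this gene. The log2 fold change was 0.56 ± 0.15 at 2 h (adjusted p = 0.00296) and 1.79 ± 0.13 at 24 h (adjusted p = 1.29e-16). The KO libraries read 30.7, 34.6 and 30.9 CPM in LPS 2 h and 95.4, 94.5 and 90.9 CPM in LPS 24 h, with log2 fold changes of 0.59 ± 0.15 and 2.18 ± 0.13 (adjusted p = 0.00129 and 9.02e-20). Parp10 (chr15:76231174-76243441, minus strand) shares 205 exonic bases with Plec on the same strand, and Plec was far more abundant, at 2436 CPM in WT Control 2 h. Plec rose at LPS 2 h (0.87 ± 0.058 in WT) and fell at LPS 24 h (-0.35 ± 0.058 in WT). The part of reads from the shared bases in the Parp10 values was not tested.

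Parp8 and Parp3 showed smaller changes. Parp8 (chr13:116854820-117025537, minus strand) read 16.3, 12.4 and 16.003 CPM in WT Control 2 h and 24.3, 17.9 and 22.7 CPM in WT LPS 2 h, a log2 fold change of 0.52 ± 0.17 (adjusted p = 0.0228). These groups did not overlap, but the call was lost without WT LPS 2 h library 1 or library 3, or WT Control 2 h library 2, at log2 fold changes of 0.40 to 0.65 over the 6 libraries left out in turn. In KO, Parp8 read 14.3, 16.1 and 15.4 CPM in Control 2 h and 30.4, 28.2 and 28.5 CPM in LPS 2 h, a log2 fold change of 0.92 ± 0.17 (adjusted p = 2.4e-05). At 24 h the log2 fold change was 1.03 ± 0.16 in WT and 1.07 ± 0.16 in KO (adjusted p = 6.92e-07 and 1.83e-07), from 14.04, 16.1 and 16.2 CPM to 33.5, 29.1 and 32.9 CPM in WT and from 17.9, 18.04 and 16.4 CPM to 38.8, 33.4 and 37.04 CPM in KO.

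Parp3, one of the 3 DNA break-activated enzymes, was called at 24 h only. At 2 h its log2 fold change was 0.30 ± 0.19 in WT and 0.11 ± 0.19 in KO (adjusted p = 0.281 and 0.739), with overlapping libraries. At 24 h it read 11.5, 16.8 and 12.4 CPM in WT Control and 39.2, 30.1 and 38.4 CPM in WT LPS, and 14.9, 14.03 and 15.4 CPM in KO Control and 31.01, 34.2 and 36.02 CPM in KO LPS. All LPS libraries were above all Control libraries, at log2 fold changes of 1.39 ± 0.17 in WT and 1.19 ± 0.17 in KO (adjusted p = 2.88e-09 and 9.87e-08). Parp3 (chr9:106470322-106476949, minus strand) shares 20 exonic bases with Rrp9 on the opposite strand.

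Parp1 and Parp2, the enzymes that build ADP-ribose chains at DNA breaks, were not called higher with LPS. Parp1 (chr1:180568924-180601254, plus strand) read 162, 149.6 and 156 CPM in WT Control 24 h and 139, 129 and 143 CPM in WT LPS 24 h. In KO it read 138, 166 and 152 CPM in Control 24 h and 125, 130.2 and 132 CPM in LPS 24 h. The LPS libraries lay below all Control libraries in both genotypes, and the log2 fold changes of -0.18 ± 0.070 (WT) and -0.24 ± 0.070 (KO) were called (adjusted p = 0.0323 and 0.00398). The WT call was lost without WT Control 24 h library 1 or 3, or WT LPS 24 h library 1 or 2, and the KO call without KO Control 24 h library 2. At 2 h the log2 fold changes were -0.14 ± 0.073 and -0.19 ± 0.073 (adjusted p = 0.183 and 0.0532). Parp2 (chr14:50807841-50821301, plus strand) was not called, with log2 fold changes of -0.25 ± 0.18 and -0.0027 ± 0.17 in WT and -0.028 ± 0.18 and -0.0082 ± 0.17 in KO at 2 and 24 h.

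**Figure D2:**
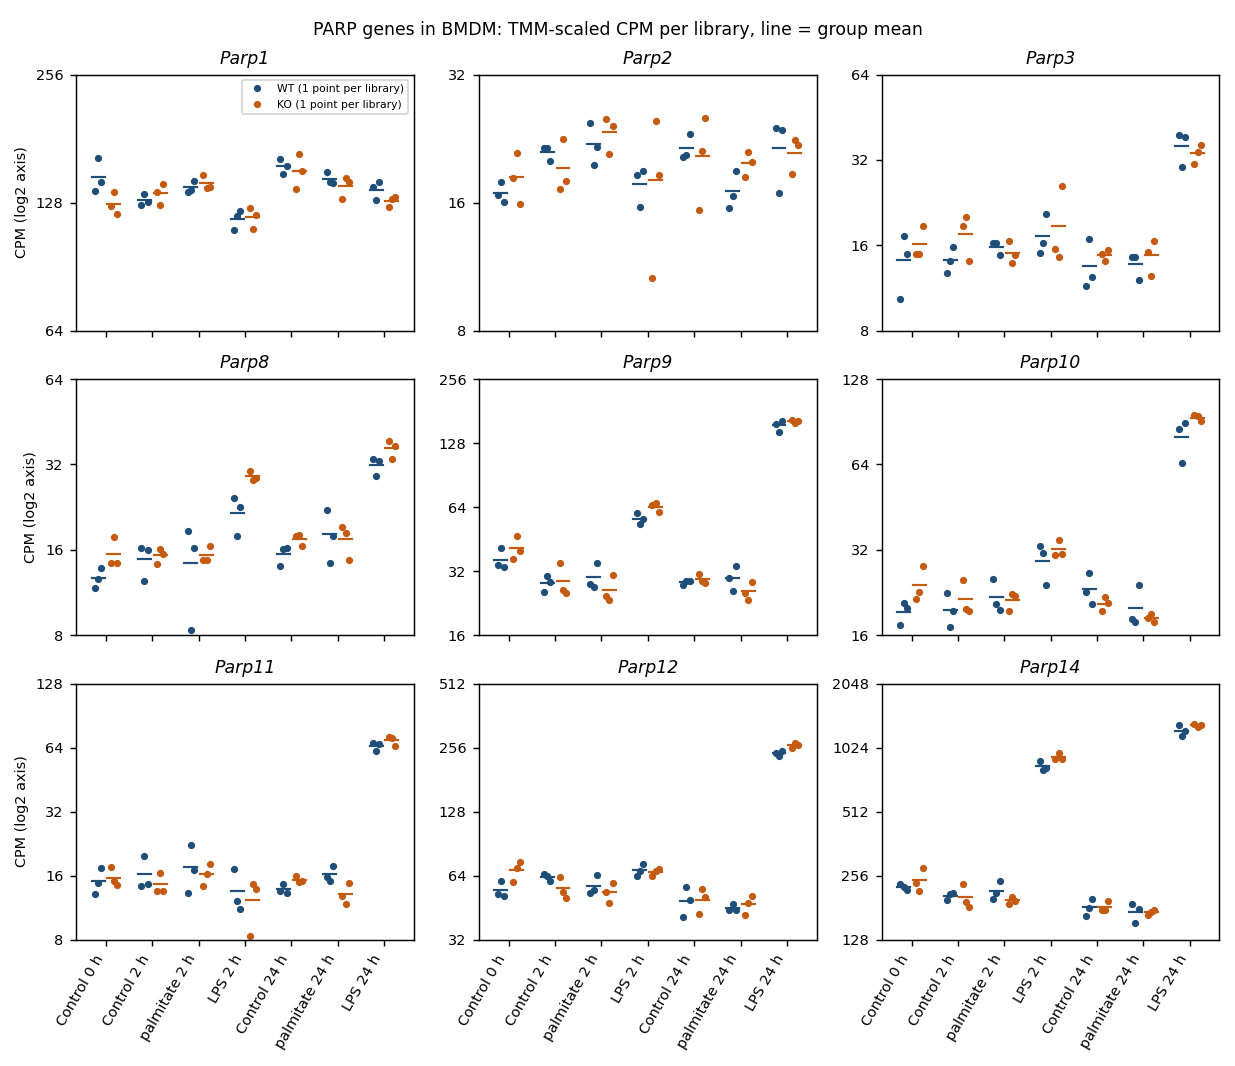
Each panel plots 1 gene, with TMM-scaled CPM on a log2 axis against the 7 conditions, a point for each library (WT blue, KO orange) and a line at each group mean. Parp14 and Parp9 are raised in both LPS groups, Parp11 and Parp12 at LPS 24 h, and Parp1 and Parp2 stay within 110.5 to 166 and 10.6 to 25.3 CPM.

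Other cell type markers moved with LPS. At 24 h, of the 6 macrophage markers, 4 were called higher and 2 lower in each genotype. The 6 macrophage markers summed to 7690 to 8750 CPM in WT LPS 24 h against 5030 to 5080 in WT Control 24 h, and to 7680 to 7950 in KO LPS 24 h against 4920 to 5070 in KO Control 24 h. The 8 granulocyte precursor markers summed to 30.6 to 33.4 CPM against 51.4 to 61.2 in WT, and to 42 to 63.2 CPM against 128 to 198 in KO, with 3 (WT) and 4 (KO) of 5 tested called lower. Of 4 dendritic cell markers tested, 1 was called higher in WT and 2 lower in KO. At 2 h, the granulocyte precursor markers summed to 45.4 to 66.1 CPM in WT LPS against 19.3 to 32.9 in WT Control, and to 118 to 204 CPM against 65 to 125 in KO, with 3 (WT) and 1 (KO) of 5 tested called higher, and 1 of 6 macrophage markers was called lower in each genotype. The 5 fibroblast markers were uneven between libraries, and none of the 3 tested was called with LPS. At 2 h they summed to 0.371 to 0.716 CPM in WT LPS against 1.16 to 58.7 in WT Control. In KO these sums were 0.759 to 152 against 72.3 to 118 CPM. At 24 h they were 0.171 to 2.48 against 2.74 to 45.2 CPM in WT, and 0.56 to 175 against 39.5 to 133 CPM in KO. The part of all these markers in the PARP values was not tested, and in such bulk libraries fewer cells of a type and less RNA per cell cannot be told apart.

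**Figure D3:**
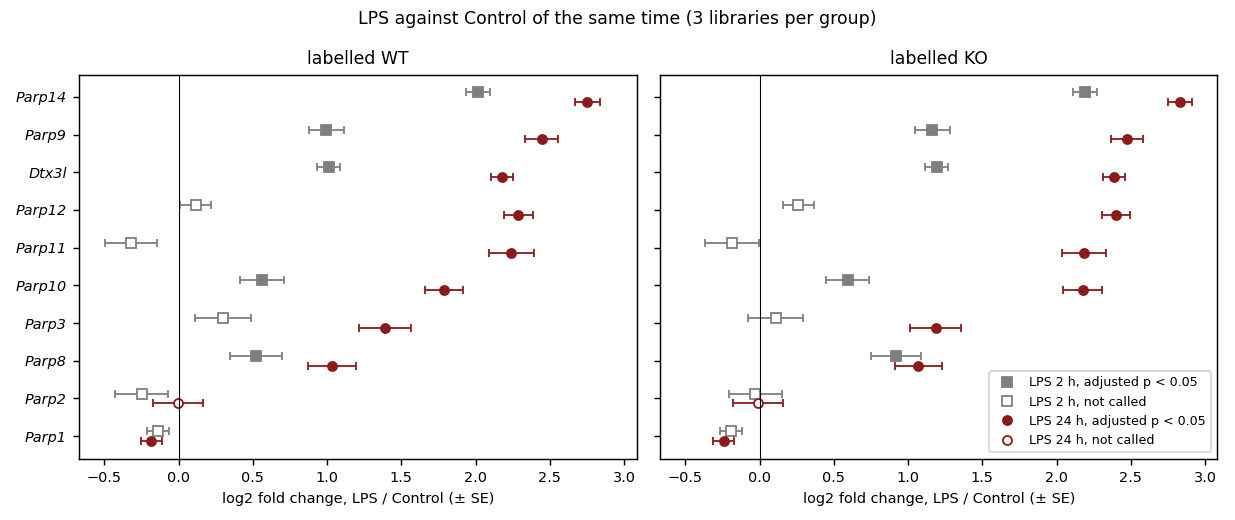
Points show the log2 fold change of LPS over Control of the same time (bars, ± SE) for the 9 PARP genes and Dtx3l in WT (left) and KO (right), at 2 h (grey squares) and 24 h (red circles), filled where the adjusted p was under 0.05. Parp14, Parp9, Parp10, Parp8 and Dtx3l are filled at 2 h, and all genes but Parp2 at 24 h, with Parp1 below 0.

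The change in the LPS response from 2 to 24 h was tested directly, as the difference of the differences from Control. Of the 9 genes, 6 were called with a larger log2 fold change at 24 h in each genotype. Of all genes tested, 14.5% (WT) and 14.3% (KO) were called higher and 32.6% and 33.4% in either direction. The difference was 2.56 ± 0.23 for Parp11 and 2.17 ± 0.14 for Parp12 in WT, and 2.38 ± 0.23 and 2.14 ± 0.14 in KO. For Parp9 it was 1.45 ± 0.16 and 1.31 ± 0.16, for Parp10 1.22 ± 0.20 and 1.58 ± 0.20, for Parp3 1.09 ± 0.26 and 1.08 ± 0.25, and for Parp14 0.73 ± 0.11 and 0.64 ± 0.11 (WT and KO). All 12 values were called with adjusted p of 0.000682 or less. Parp1, Parp2 and Parp8 were not called. For Parp8 the difference was 0.51 ± 0.24 in WT and 0.15 ± 0.23 in KO (adjusted p = 0.0992 and 0.67).

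Among the other ADP-ribosyltransferases, Tiparp and Zc3hav1 were called higher at both times. Tiparp (PARP7), a target of the aryl hydrocarbon receptor, had log2 fold changes of 2.13 ± 0.11 (WT) and 2.32 ± 0.11 (KO) at LPS 2 h and 0.75 ± 0.12 and 0.55 ± 0.12 at 24 h, and its response fell by 1.37 and 1.77 on the log2 scale between the times (adjusted p = 1.57e-09 and 9.39e-13). Zc3hav1 (PARP13 or ZAP, which binds viral RNA) rose by 0.76 ± 0.067 and 0.78 ± 0.067 at 2 h and by 0.77 ± 0.066 and 0.79 ± 0.066 at 24 h. Of the 7 genes on this list, 2 rose at LPS 2 h and 2 at LPS 24 h in both genotypes. Called higher among all genes tested were 14% (WT) and 14.7% (KO) at 2 h, and 19.6% and 19.9% at 24 h. Of all genes tested, 39.5% (WT) and 40.9% (KO) were called in either direction at 24 h. In WT LPS 24 h, 3 of the 7 fell (Parp16 at -1.29 ± 0.46), while in KO LPS 24 h 1 fell (Parp4 at -0.27 ± 0.094). The list median was 0.020 (WT) and 0.13 (KO) at 24 h.

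Of 13 listed genes for the removal, reading and partners of ADP-ribosylation, 12 were tested. At LPS 24 h, 3 rose and 2 fell in WT, and 3 rose and 3 fell in KO, a share near that of all genes (39.5% and 40.9%). Besides Dtx3l, the largest were Macrod1, which removes single ADP-ribose units, at -1.66 ± 0.31 (WT) and -1.43 ± 0.29 (KO), and Dtx2, at 1.32 ± 0.15 and 1.34 ± 0.16. At LPS 2 h, 2 rose and 1 fell in WT and 5 rose in KO. Of all genes tested, 14% (WT) and 14.7% (KO) were called higher at 2 h, and 23.1% and 23.9% in either direction. The list medians lay between -0.018 and 0.039 in the 4 LPS comparisons.

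Genes that make or use NAD, the substrate of PARP enzymes, were led by Cd38, an ecto-enzyme that breaks NAD down. Of 17 listed, 14 were tested, and at LPS 24 h 3 rose and 1 fell in WT, and 4 rose and 3 fell in KO, where 39.5% (WT) and 40.9% (KO) of all genes tested were called in either direction. Cd38 rose by 2.47 ± 0.18 (WT) and 2.22 ± 0.17 (KO) at LPS 2 h and by 3.90 ± 0.15 and 3.60 ± 0.15 at 24 h. Its relative Bst1 rose by 1.63 ± 0.11 and 1.34 ± 0.11 at 24 h, and Nadk, which turns NAD into NADP, by 1.496 ± 0.076 and 1.53 ± 0.076. Nampt, the rate-limiting enzyme of NAD salvage, fell by 0.41 and 0.59 on the log2 scale at 24 h and is named here after its values were seen. At LPS 2 h, 3 of 14 rose in WT and 4 in KO, where 14% (WT) and 14.7% (KO) of all genes tested were called higher.

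Of 10 genes for the repair of single-strand breaks, in which PARP1 and PARP2 act, 3 rose and 1 fell at LPS 24 h in both genotypes, close to the share of all genes (39.5% and 40.9%). Pcna, the sliding clamp of DNA replication, fell by 0.91 (WT) and 0.92 (KO) on the log2 scale, and Polb rose by 0.77 ± 0.17 and 0.57 ± 0.17. Aptx rose by 0.45 ± 0.15 in KO. Of 16 interferon-stimulated comparison genes, 15 rose at LPS 2 h and 16 at LPS 24 h in each genotype, with a median log2 fold change of 5.14 (WT) and 5.33 (KO) at 24 h. The largest PARP fold change at 24 h, that of Parp14, was below this median in both genotypes.

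**Figure D4:**
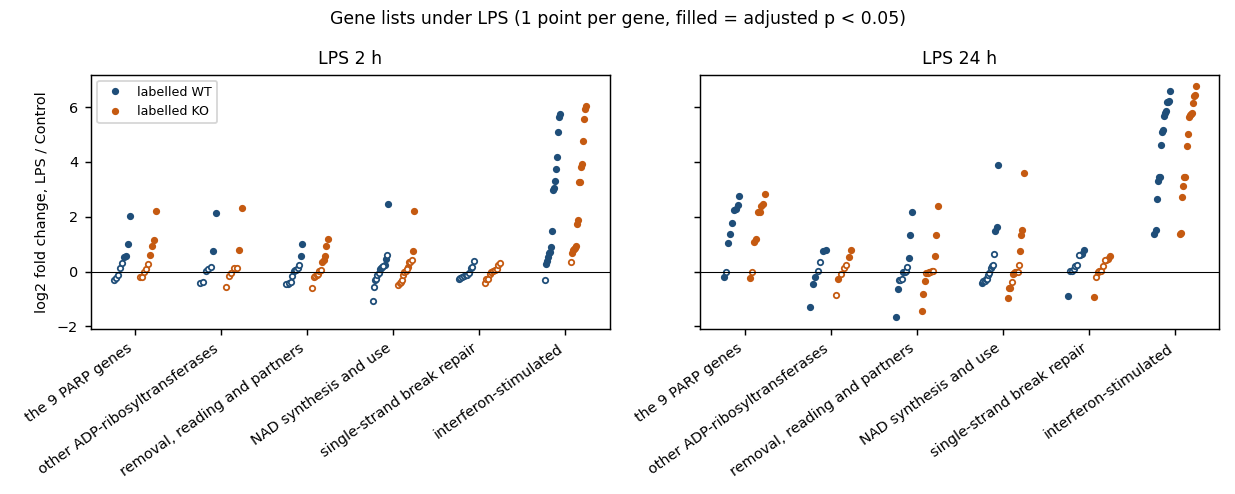
Each point is the log2 fold change of 1 gene, LPS over Control, at 2 h (left) and 24 h (right) for WT (blue) and KO (orange), by gene list and filled where the adjusted p was under 0.05. The interferon-stimulated genes reach above 6, the PARP genes up to 2.83, and the list of single-strand break repair stays within 1 log2 unit of 0.

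Across the 14 group means, the 3 tested genes with the highest Pearson correlation of log2 CPM were Isg15, Susd6 and Ifit2 for Parp14 (r = 0.997, 0.996 and 0.994), and Sp100, Trim30a and Phf11d for Parp12 (r = 0.997, 0.996 and 0.995). Parp9 was closest to Dtx3l (r = 0.996), Irgm1 (0.993) and Scarf1 (0.99). Parp10 was closest to Eif2ak2 (r = 0.989), Tor3a and Adar (0.987 each), and Parp11 to Morc3 (0.991), Ubb (0.987) and Oas3 (0.986). Parp3 was closest to Gsdmd and Isg20 (0.98 each) and Gm6548 (0.978). Of these genes, Isg15 and Ifit2 are on the list of interferon-stimulated comparison genes. Parp8 stood nearest to Tarm1, Acsl1 and Fpr2 (r = 0.977, 0.976 and 0.969). The nearest patterns to Parp1 (Brd3, 0.895) and Parp2 (Tpcn2, 0.845) were less close. These values are chosen as the highest of 9105 genes, and the 14 points are dominated by the contrast of LPS with other groups.

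Among the members themselves, Parp10 and Parp12 had the highest correlation (r = 0.974 over the 14 group means), followed by Parp3 and Parp12 (0.973) and Parp9 and Parp10 (0.972). Parp11 and Parp14 gave 0.645. Parp1 had a negative r with all 7 induced genes, between -0.634 (Parp14) and -0.0517 (Parp11). All points share libraries, depth and scaling, so these are descriptions.

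Palmitate was compared with Control of the same time. None of the 9 genes was called by edgeR at 2 or 24 h in either genotype, with 0 of 36 tests at an unadjusted p under 0.05, and DESeq2 called 0 with 2 of 36 at an unadjusted p under 0.05. Of all genes tested, palmitate called 0.275% (WT) and 0.112% (KO) at 2 h, and 0.852% and 0.877% at 24 h. The largest differences were -0.34 ± 0.17 for Parp2 in WT at 24 h and 0.28 ± 0.17 for Parp2 in KO at 2 h. Parp14 read 189, 152 and 177 CPM in WT palmitate 24 h and 167, 173 and 176 CPM in KO palmitate 24 h, and overlapped with the Control 24 h libraries of the same genotype. Its log2 fold changes under palmitate were 0.070 ± 0.082 and -0.047 ± 0.082 at 2 h and -0.078 ± 0.084 and -0.089 ± 0.083 at 24 h (WT and KO), beside 2.02 to 2.83 under LPS, against the same Control libraries. The difference between the palmitate responses at 2 and 24 h was not called for any member, where 0.241% (WT) and 0.172% (KO) of all genes were called; by edgeR 0 of the 9 in WT and 1 in KO had an unadjusted p under 0.05, and DESeq2 called none (with no adjusted p for 1 member in WT), with 1 in each genotype at an unadjusted p under 0.05.

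The libraries labelled KO and WT were compared in each condition, which asks whether PARP expression differed where Irf5 is labelled as deleted. At Control 0 h, 2 of the 9 genes were called, where 12.5% of all genes were. Parp1 read 136, 163 and 143 CPM in WT and 125, 136 and 121 CPM in KO, without overlap, a log2 fold change of -0.21 ± 0.070 (adjusted p = 0.0371). Parp12 read 52.7, 60.3 and 51.5 CPM in WT and 59.5, 69.7 and 73.9 CPM in KO, with overlap, a log2 fold change of 0.31 ± 0.099 (adjusted p = 0.0323). Neither call was steady. Parp1 lost it without KO Control 0 h library 1 or 3 or WT Control 0 h library 2 or 3, and Parp12 without KO library 2 or 3 or WT library 1 or 3 of that time. In the fit of only the libraries compared, and with all genes that had a count, 1 of the 9 was called.

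Other markers moved with the genotype at that time. The 5 fibroblast markers summed to 42.1 to 69.3 CPM in KO Control 0 h against 0.529 to 0.905 in WT Control 0 h, with 3 of 3 tested markers called higher. The 8 granulocyte precursor markers summed to 73 to 81.5 CPM against 47.2 to 54.4, with 1 of 5 tested called higher. Of the 6 macrophage markers, 1 was called higher and 3 lower. The 1 B cell marker tested was called lower. Granulocyte precursor markers were also called higher in KO in other conditions, 4 of 5 at Control 2 h, 3 at palmitate 2 h, 2 at LPS 2 h, 3 at Control 24 h and 1 at LPS 24 h. The fibroblast markers also summed to 72.3 to 118 CPM in KO Control 2 h against 1.16 to 58.7 in WT Control 2 h. At Control 24 h they summed to 39.5 to 133 CPM in KO against 2.74 to 45.2 in WT. None of the 3 tested fibroblast markers was called at these times. The part of these markers in the Parp1 and Parp12 values was not tested.

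In the other 6 conditions no member was called between genotypes. Of all genes tested, 0.49% were called at Control 2 h, 0.146% at palmitate 2 h, 0.465% at LPS 2 h, 0.12% at Control 24 h, 0.0688% at palmitate 24 h and 0.146% at LPS 24 h. Over these 54 tests, edgeR gave 1 unadjusted p under 0.05 and DESeq2 gave 0 calls with 1 unadjusted p under 0.05, and no adjusted p for 5 of the 9 members at LPS 24 h. The edgeR value belonged to Parp8 at LPS 2 h, where all KO libraries were above all WT libraries (0.43 ± 0.17, adjusted p = 0.267). Parp12, higher in KO at Control 0 h, had a log2 fold change of -0.18 ± 0.10 at Control 2 h (adjusted p = 0.582).

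The difference between the genotypes in their response to treatment was not called for any PARP gene. Of all genes, 0% were called for LPS 2 h, 0% for palmitate 2 h, 0% for palmitate 24 h and 0.0086% for LPS 24 h. Over the 36 tests of the 9 genes, edgeR and DESeq2 each called 0 and each had 1 unadjusted p under 0.05. For Parp14 the LPS response of KO minus that of WT was 0.18 ± 0.11 at 2 h and 0.077 ± 0.11 at 24 h. The largest value under LPS at 24 h was that of Parp10, at 0.39 ± 0.19 (adjusted p = 0.924), and at 2 h that of Parp8, at 0.39 ± 0.24 (adjusted p = 0.758).

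**Figure D5:**
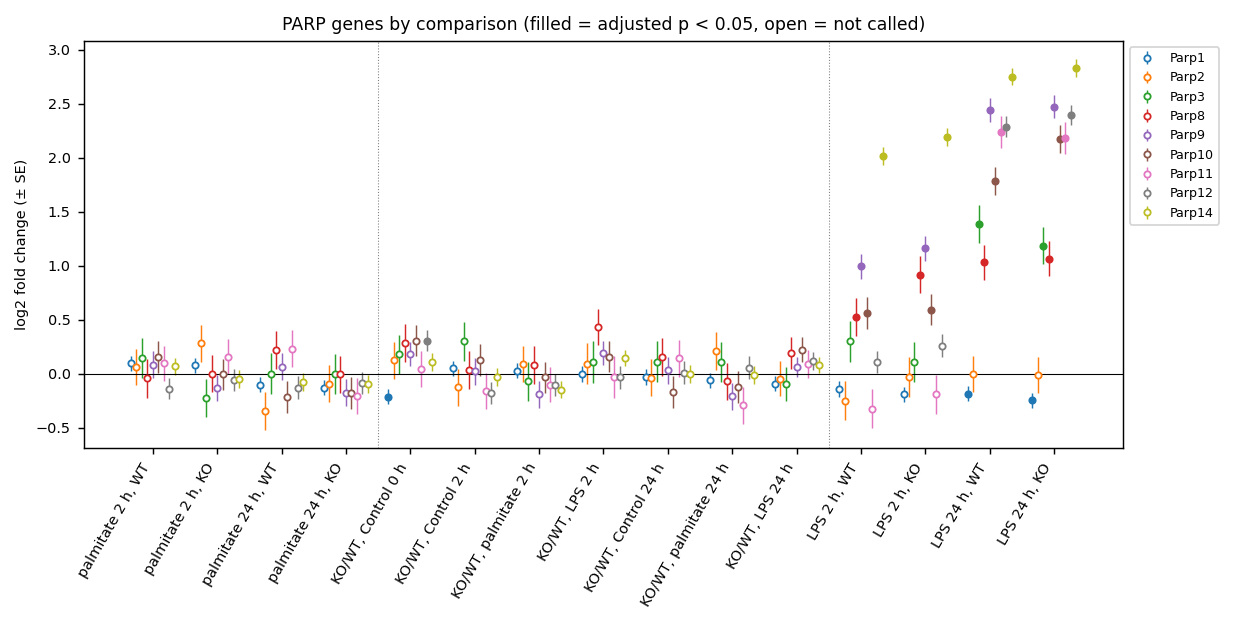
The log2 fold change (± SE) of each of the 9 PARP genes is plotted for palmitate over Control, for KO over WT and for LPS over Control, filled where the adjusted p was under 0.05. In the first 11 comparisons only Parp1 and Parp12 at Control 0 h are filled, and no value is beyond 0.43.

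The Control libraries were also compared over time. Over both genotypes, Parp9 and Parp14 were lower at Control 2 h than at Control 0 h, 2 of the 9 genes where 7.36% of all genes were called lower and 16.7% in either direction. Their log2 fold changes were -0.44 ± 0.084 (adjusted p = 6.78e-05) and -0.20 ± 0.057 (adjusted p = 0.00935). The Parp14 call was lost without KO Control 0 h library 3 or KO Control 2 h library 3. At Control 24 h against Control 0 h, 3 of the 9 genes were lower, where 8.62% of all genes were called lower and 16.5% in either direction: Parp9 by -0.42 ± 0.085, Parp14 by -0.36 ± 0.058 and Parp12 by -0.30 ± 0.072.

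Parp9 read 34.2, 41.05 and 33.3 CPM in WT Control 0 h and 36.5, 46.7 and 39.8 CPM in KO Control 0 h, above all 6 libraries of Control 24 h. Dtx3l fell with it, by 0.40 at 2 h and 0.35 at 24 h on the log2 scale. Parp1 was higher at Control 24 h by 0.17 ± 0.049 (adjusted p = 0.0114), a call that was lost without WT Control 0 h library 1 or KO Control 24 h library 2. In the same 24 h comparison, of the macrophage markers 2 of 6 were called higher and 3 lower, and 2 of 5 granulocyte precursor and 2 of 4 dendritic cell markers tested were called higher. At Control 2 h 1 macrophage marker was called lower. Their part in the PARP values was not tested. Of the 16 interferon-stimulated comparison genes, 11 were lower at Control 24 h, with a median of -0.42, and at Control 2 h 3 were lower and 2 higher.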

How the data were processed

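Libraries were prepared from BMDM total RNA with a stranded kit, in which ribodepletion came after cDNA synthesis. Per the labels and the study's methods, reads were trimmed with fastp 0.19.11 and aligned with STAR 2.7.3a to mm10 (mm9 is also named). The authors deposited raw read counts per gene. The annotation release and the use of strand in counting are not stated, so overlapping genes are uncertain. Columns name a group and no replicate, so library numbers are names only. Of 37310 identifiers, 32620 matched a symbol (GENCODE vM21).

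Counts were fitted in R 4.3.3 with edgeR 4.0.16 (filterByExpr, TMM, quasi-likelihood F test, 1 mean per group over 42 libraries), with Benjamini-Hochberg adjustment over 11624 genes and calls at an adjusted p under 0.05. The SE is the log2 fold change divided by the square root of F. In no pair of libraries of a group did the counts match within sampling noise (chi-square of at least 1.93 per degree of freedom). A count of 3 was 0.387 to 1.05 CPM. The script was tested on simulated data. Alternatives were RLE scaling, all genes with a count, the compared libraries alone, DESeq2 1.42.0 (the tool of the study) and leaving out each library.

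All members were named in every comparison that called them. From each gene list at most 3 called genes with the largest change were named, and similar patterns were the 3 highest Pearson correlations over 14 group means (log2 CPM, prior count 2) among genes of at least 5 CPM. A gene that the rule for lists would name is not reported here. The members and lists were chosen with earlier results of these data known. The NF-kB letters GGGNNNNNTCC, written into the plan by a slip, were replaced by the form with 4 free bases.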

Additional observations from a re-analysis of the deposited data

Results flagged for a closer look

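The LPS response of 6 PARP genes differed between 2 and 24 h, by a test of the difference of the 2 fold changes in edgeR, and these 12 results are set out here for both genotypes. In WT the 24 h response exceeded the 2 h response by 2.56 ± 0.23 (log2, SE) for Parp11 (adjusted p = 5.15e-13), 2.17 ± 0.14 for Parp12 (adjusted p = 2.84e-18) and 1.45 ± 0.16 for Parp9 (adjusted p = 2.44e-10). It exceeded it by 1.22 ± 0.20 for Parp10 (adjusted p = 1.53e-06), 1.09 ± 0.26 for Parp3 (adjusted p = 0.000682) and 0.73 ± 0.11 for Parp14 (adjusted p = 4.94e-07).

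In KO the same differences were 2.38 ± 0.23 for Parp11 (adjusted p = 6.62e-12), 2.14 ± 0.14 for Parp12 (adjusted p = 8.52e-18) and 1.31 ± 0.16 for Parp9 (adjusted p = 3.22e-09). They were 1.58 ± 0.20 for Parp10 (adjusted p = 3.98e-09), 1.08 ± 0.25 for Parp3 (adjusted p = 0.000609) and 0.64 ± 0.11 for Parp14 (adjusted p = 8.39e-06). The 2 h and 24 h responses rest on separate libraries of each group. The Control libraries drifted between 0 and 24 h for Parp9, Parp12 and Parp14, and each response was taken against the Control of its own time. Groups of 3 libraries were not tested for a single library far from the others.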

How the results depend on the processing

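No paired analysis was possible because the columns carry no replicate numbers. With RLE scaling and with DESeq2, the number of PARP genes called stayed within 1.5 times the reported one in 25 of 25 comparisons, and with all genes that had a count and with only the compared libraries in 24 of 25. The exception in both was KO against WT at Control 0 h, where 2 members were called in the report and 1 under either alternative (Parp12). Without 1 library, that comparison called 0 to 1 members (0 without KO library 3 or WT library 3, and 1 without any of the other 4), and Control 2 h against Control 0 h called 1 to 2 (1 without KO Control 0 h library 3 or KO Control 2 h library 3). The cause was not tested. The other counts without 1 library stayed within 1.5 times. No value of a member that was called in any setting changed direction. With RLE scaling and with DESeq2, Parp1 at LPS 2 h in KO was also called. With all genes that had a count, Parp1 lost its call at LPS 24 h in WT. Among the values of members without 1 library, 372 kept their side of the threshold, 20 lost a call and 4 gained one. The SE of the LPS fold changes of members was 0.070 (Parp1) to 0.19 (Parp3) on the log2 scale.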
